A study of Mus musculus with 96 samples.

Results

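Hand-dissected mouse glomeruli were compared with 14 stretches of the renal tubule to ask which genes set the filtering unit of the kidney apart from the epithelium that processes its filtrate. The glomerulus was represented by the 6 samples labelled GL, pieces a and b from each of 3 mice, out of 93 microdissected samples. The other 87 samples, from 50 mice, were tubule. Every animal was an untreated male C57BL/6 mouse, pathogen-free and 6 to 8 weeks old, kept on normal chow, and no group carried a mutation or transgene. The groups therefore differed in the structure dissected, and whether their values came from the same processing run is not given. Proximal tubule was sampled at its start (PTS1), along its cortical straight stretch (PTS2) and at its end in the outer stripe (PTS3). The loop of Henle gave short-loop descending limbs (DTL1), long-loop descending limbs from outer (DTL2) and inner medulla (DTL3), thin ascending limbs (ATL) and thick ascending limbs of medulla (MTAL) and cortex (CTAL). The distal nephron gave distal convoluted tubule (DCT), connecting tubule (CNT) and collecting duct from cortex (CCD), outer (OMCD) and inner medulla (IMCD). PTS2, CTAL and CCD came from 5 mice each, ATL and OMCD from 4 each, and the 9 remaining segments from 3 each.

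A glomerulus is a tuft of capillaries held together by mesangial cells, wrapped by podocytes and enclosed by the parietal epithelium of Bowman's capsule. Podocytes extend foot processes joined by slit diaphragms, and with the fenestrated endothelium they build the shared basement membrane through which plasma is filtered. At the vascular pole, the renin-producing juxtaglomerular cells lie in the wall of the afferent arteriole. A dissected glomerulus is thus a mixture of cell types with almost no transporting epithelium, whereas a tubule segment is mostly epithelium with attached capillaries.

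Transcript abundance was read from poly(A) RNA by sequencing of very small inputs and is given as TPM, a share of each sample's transcripts that is scaled for gene length and has the same sum in every sample. TPM keep no read number, so depth is unknown. Values are means ± SD over mice in TPM, pieces of a mouse averaged first. Differences were tested with limma on log2(TPM + 1) per mouse and are given as log2 difference ± SE, with Benjamini-Hochberg adjusted p over the 33793 genes that reached 1 TPM in at least 3 mice. On this scale the change of low genes is understated. A gene was called at an adjusted p under 0.05 and a log2 difference of at least 1, either against the mean of the 14 segments or, in a stricter test, against each of the 14. In pieces of mixed tissue, fewer cells of a type and less RNA per cell cannot be told apart.

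The samples carried the label's tissue. Podxl, the podocalyxin that coats podocytes, was at 2002 to 3070.2 TPM (median 2183) in the 6 glomerular samples. No tubule sample exceeded 61.1 TPM, and the highest segment mean was 30.9 ± 10.5 TPM in DTL1. Ren1, which encodes renin, was at 555 to 2054 TPM (median 1249), and every glomerular sample lay above the highest tubule sample, an OMCD piece at 67.2 TPM. One label of these samples gives their preparation as renal tubule, which neither gene bears out, and how many glomeruli a piece held is not given. Transcripts of odorant and vomeronasal receptors, most of which have no known use in kidney, differed between groups: of 1459 such genes, 294 to 817 were at 1 TPM or more in the glomerular samples and 636 to 746 in DTL1, against 0 to 114 in the 61 samples of 9 other segments (PTS1, PTS2, PTS3, MTAL, CTAL, DCT, CNT, CCD and IMCD). Of the 855 receptor genes tested, 230 were called higher in glomerulus and 0 lower, and 3 exceeded every segment. Of all genes tested, 31.6% were called higher and 3.22% exceeded every segment, so the receptor genes were called no more often than all genes. All genes include the receptor genes, and the change of low genes is understated, so this comparison cannot size the part of such transcripts. The part of such transcripts in the counts below was not tested.

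Against the mean of the 14 segments, 10681 genes were higher in glomerulus (31.6% of those tested) and 1333 lower (3.94%). Of the protein-coding genes, 5554 were higher and 1219 lower. The median difference over all genes was 0.69 log2 units, and it depended on the scaling: it was 0.48 after rescaling each mouse by its median ratio and -0.03 after quantile normalization. The quantile values gave 2868 genes higher and 3061 lower, so the excess of higher over lower calls was not kept. In the stricter test, 1088 genes exceeded every segment (3.22%), 952 of them protein-coding, and 98 were below every segment (0.29%), 93 of them protein-coding. Quantile normalization gave 863 and 240. All 3 glomerular mice lay above all 50 tubule mice for 1855 genes (5.49%) and below them for 195 (0.577%). Genes above every segment supplied 14.8% to 16.8% of all TPM in the glomerular samples and 0.342% to 2.76% in the tubule samples. Genes below every segment supplied 0.108% to 0.149% against 1.29% to 3.23%. Both sets were chosen in these same samples, so the direction of these gaps was fixed by the choice.

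The number of genes called against the glomerulus differed by segment. So did the median difference over all genes, at 1.15 for PTS3, 1.10 for PTS2 and -0.17 for DTL1. Genes at 1 TPM or more numbered 11291 to 11788 in PTS3 samples, 26044 to 28418 in DTL1 and 22461 to 29603 in glomerulus. The part of this shift in the counts was not tested. Counts per segment were not repeated after quantile normalization. PTS3 and PTS2 had the most calls, with 18904 and 18298 genes higher in glomerulus (55.9% and 54.1%) and 1697 and 1904 lower (5.02% and 5.63%). PTS1, MTAL, CTAL and DCT followed with 47.1%, 47.5%, 45.6% and 47.2% of genes higher and 4.8%, 4.98%, 5.32% and 5.05% lower. CNT, CCD and IMCD had 41.9%, 39.6% and 39.4% higher and 5.61%, 6.07% and 5.19% lower. DTL1 stood apart from the other segments: 2365 genes were higher in glomerulus (7.0%) and 3825 lower (11.3%), so that more genes were lower than higher. In the share of genes higher in glomerulus, DTL3, DTL2, OMCD and ATL lay between DTL1 and the others, at 10.5%, 15.3%, 17.8% and 21.0%. Their shares of lower genes were 5.69%, 5.33%, 6.05% and 4.43%, that of ATL being the lowest of any segment. Counting both directions, DTL3 had the fewest calls of any segment (5468, against 6190 for DTL1). DTL1 was also the next-highest segment for 557 of the 1088 genes above every segment, against 103 for DTL3 and 94 for DTL2. Without DTL1 the count above every segment was 1731, and without DTL1, DTL2, DTL3, ATL and OMCD, the 5 segments with the most receptor transcripts, it was 8733. The genes below every segment met their closest segment in PTS1 (26), PTS3 (15), ATL (13) and IMCD (13).

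**Figure D1:**
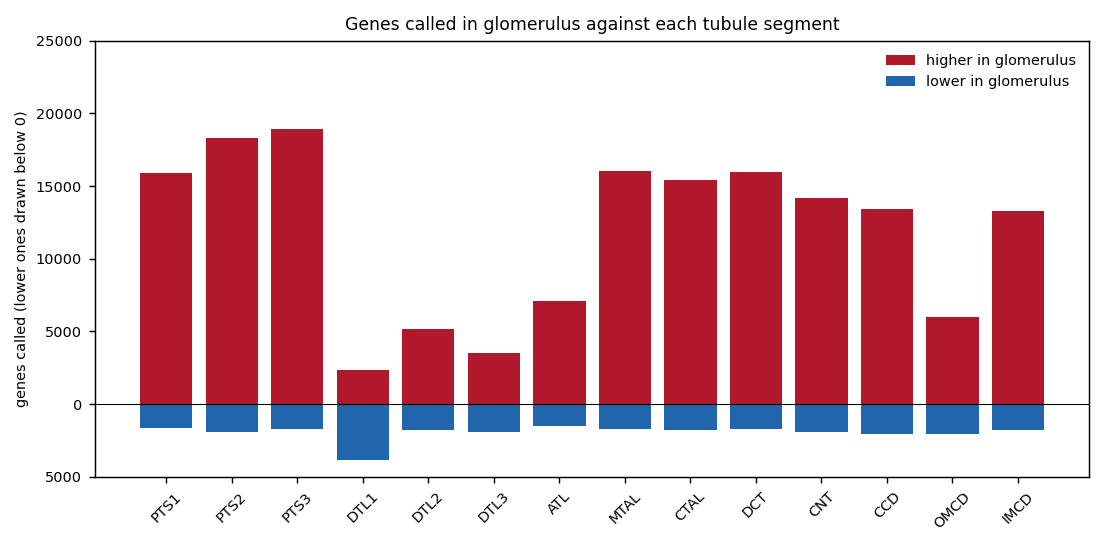
Number of genes called higher (red, above 0) or lower (blue, drawn below 0) in glomerulus against each of the 14 tubule segments, of 33793 tested. Each bar is one segment; of the 14 segments, in DTL1 alone the lower calls (3825) outnumber the higher ones (2365).

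The genes farthest above every segment included known podocyte genes, the renin gene and genes with no established glomerular role. Ren1 had the largest difference from the mean of the segments among the genes named here, 9.72 ± 0.35 (adjusted p = 4.7e-27). Its mean was 1276 ± 399.8 TPM, 8.66 ± 0.42 above CTAL, its closest segment on the log scale (adjusted p = 3.5e-20). Rab3b, a small GTPase of regulated secretion, was at 905 to 1280.2 TPM (median 1105) and differed from DTL1 by 7.89 ± 0.27. Next by margin, apart from H2-Q6 described below, came Shisa3 (422 ± 31.1 TPM) and Ptpro (720.1 ± 164), a receptor phosphatase of the podocyte surface. They were followed by the secreted Wnt modulator Sfrp2 (998 ± 247), the metalloproteinase Mmp23 (586 ± 25.5) and Sema3g (398 ± 49.8), a semaphorin secreted by podocytes. Then came Gja5 (284 ± 18.9), a connexin of endothelial and renin cells, Ddn (292 ± 31), the podocyte protein dendrin, and Myl7 (179.5 ± 68.7), a myosin light chain of cardiac atrium. None of these 8 had a segment mean above that of Sfrp2, 4.27 in DTL1. H2-Q6 (2924 ± 405 TPM) and H2-Q7 (2194 ± 82.8) code for class I histocompatibility proteins. They are similar copies between which reads can be split, so their separate levels are uncertain, although both exceeded their highest segment, DTL1, at 27.7 ± 14.6 and 33.9 ± 8.0 TPM. Clic3, a chloride intracellular channel protein, reached 2763 ± 255 TPM against 60.1 ± 5.49 TPM in DTL3, and Cdkn1c, the cell cycle inhibitor p57 of mature podocytes, 3082 ± 499 against 29.6 ± 12.4 TPM in DTL1.

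**Figure D2:**
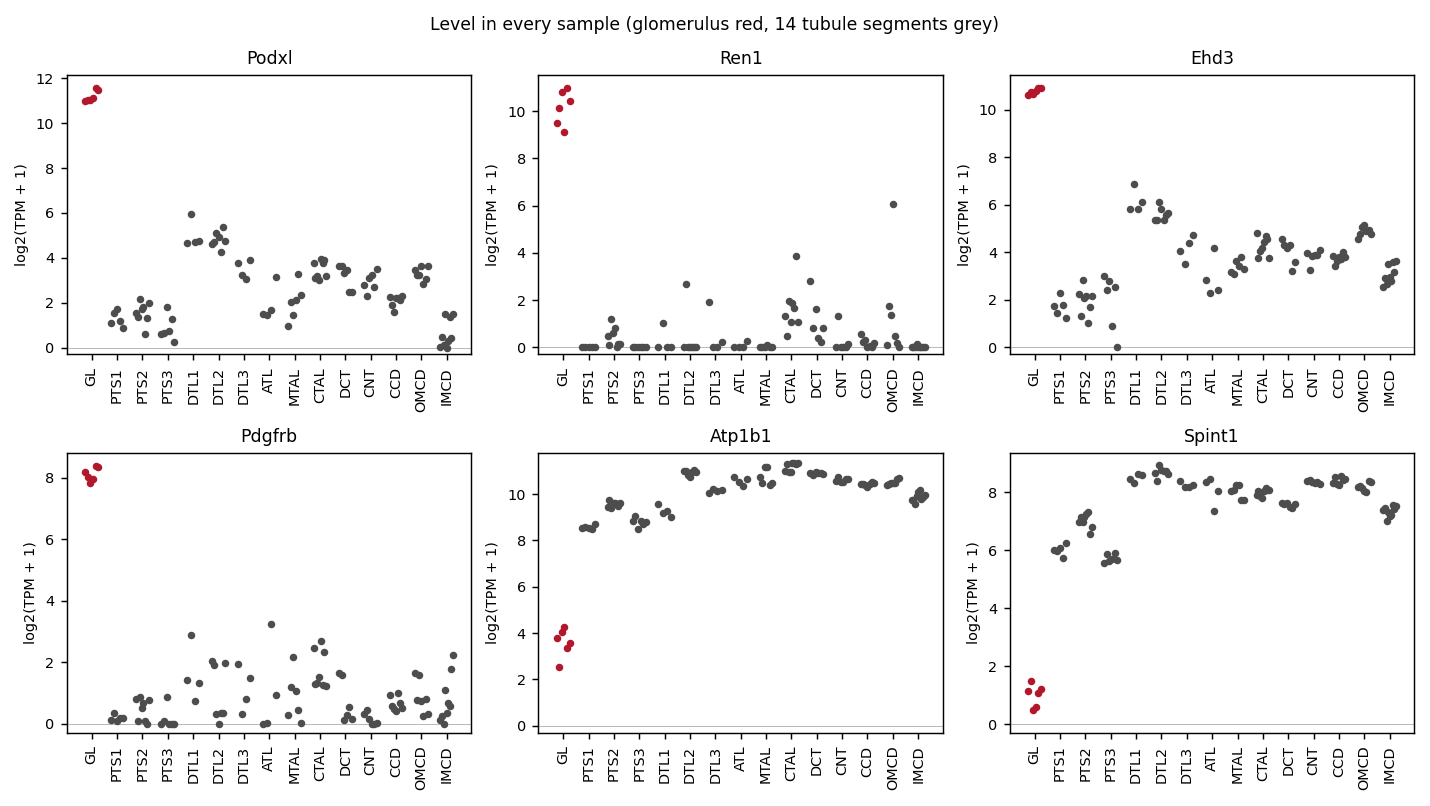
Level of 6 genes in every sample, as log2(TPM + 1), for the 6 glomerular samples (GL, red) and the 87 tubule samples (grey) of 14 segments. Podxl, Ren1, Ehd3 and Pdgfrb show all glomerular samples above all tubule samples, Atp1b1 and Spint1 all below.

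Podocyte genes were nearly all higher in glomerulus. Of 31 listed genes of the slit diaphragm, foot process and podocyte body, 30 were called higher and 0 lower, with a median difference of 4.94 against 0.69 over all genes tested, and 24 exceeded every segment (31.6% and 3.22% of all genes). After median ratio rescaling 27 were called higher, and after quantile normalization 28. Their summed level was 22197 to 27054 TPM in the glomerular samples and 2790.1 to 4280 TPM in DTL1, the highest segment. Nphs1, the nephrin that bridges neighbouring foot processes, was at 145 to 249 TPM (median 180.2) and no higher than 3.22 in any tubule sample. It exceeded its closest segment, DTL3, by 6.23 ± 0.25 (adjusted p = 1.0e-24). Kirrel, a nephrin-like partner, was lower at 34.5 ± 5.98 TPM but still above every segment (5.05 ± 2.39 TPM in DTL3 at most), while its relative Kirrel3 was at 3.33 ± 1.1 in glomerulus and 59.2 ± 20.8 TPM in DTL3. Cd2ap, the adaptor that ties nephrin to actin, differed by only 1.15 ± 0.11 from the mean of the segments, at 46.9 ± 4.05 TPM against 103 ± 5.27 TPM in IMCD. Cd2ap missed the size threshold after median ratio rescaling (0.75) and quantile normalization (0.61), as did Kirrel3 (0.96 and 0.04).

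The actin-linked and signalling genes of the foot process fell into a podocyte-rich group and a widely used group. Synpo, which organises foot process actin, was at 1488 to 2007 TPM (median 1596) against 44.5 ± 2.36 TPM in DTL1, and Magi2, a slit diaphragm scaffold, at 659 ± 66.2 against 29.7 ± 5.24 TPM in OMCD. Rhpn1 (989 ± 87.1 TPM), Thsd7a (304 ± 45.8), an antigen in membranous nephropathy, Clic5 (526 ± 60.0), which links podocalyxin and ezrin to actin, and Nes (369 ± 33.4), an intermediate filament protein, all exceeded their highest segment by more than 4 log2 units. Pla2r1, another membranous nephropathy antigen, was lower, at 66.7 ± 4.63 TPM, 1.88 ± 0.41 above DTL1. Several genes of inherited podocyte disease that are also used elsewhere had small margins: Actn4 was at 1246 ± 114 TPM against 451 ± 60.8 TPM in DTL3, Inf2 at 18.7 ± 4.14 against 5.15 ± 1.76 TPM in DTL3, Myo1e at 347 ± 45.9 against 82.3 ± 4.89 TPM in OMCD, and Itga3 at 419.5 ± 68.2 against 186 ± 23.6 TPM in DTL3. Trpc6, a calcium channel, was low but exceeded every segment, at 14.5 ± 1.18 TPM against 1.56 ± 0.266 TPM in DTL1. Plce1, a phospholipase needed for podocyte maturation, was at 75.6 ± 17.3 against 16 ± 8.87 TPM in DTL1. Beside Cd2ap and Kirrel3, the members called higher than the mean but not than every segment were Arhgap24 (904 in ATL against 655 TPM in glomerulus), Npnt (1205 in OMCD against 818), Dag1 (656 in DTL1 against 697) and Fat1 (18.8 in DTL1 against 26.2), with the highest segment first. Arhgap24 missed the size threshold after median ratio rescaling (0.85). Ezr, the membrane linker ezrin, was the member not called, at 451 ± 41 TPM and 469.8 ± 18.8 TPM in CNT.

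Transcription factors known from podocytes were called higher throughout (31.6% of all genes), and 6 of 7 exceeded every segment (3.22% of all genes). Their median difference was 6.74. Wt1, the zinc finger factor required for podocyte identity, was at 152 to 201 TPM (median 178) and at most 6.64 in tubule. Tcf21 was at 559.5 ± 90.8 TPM, Foxc2 at 135 ± 5.77, Lmx1b at 35.9 ± 11 and Foxd1 at 29.6 ± 4.42. Each of these was 3.69 or more above its closest segment, the smallest margin being that of Lmx1b. Foxc1 broke the pattern. It was higher than the mean of the segments by 3.00 ± 0.14, yet its level was 128 ± 36 TPM in DTL1 against 37.8 ± 3.15 in glomerulus. The closest paralog Foxc2 did not exceed 0.895 in DTL3. With the 14 segment means as units, Foxc1 was not called (adjusted p = 0.0593).

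**Figure D3:**
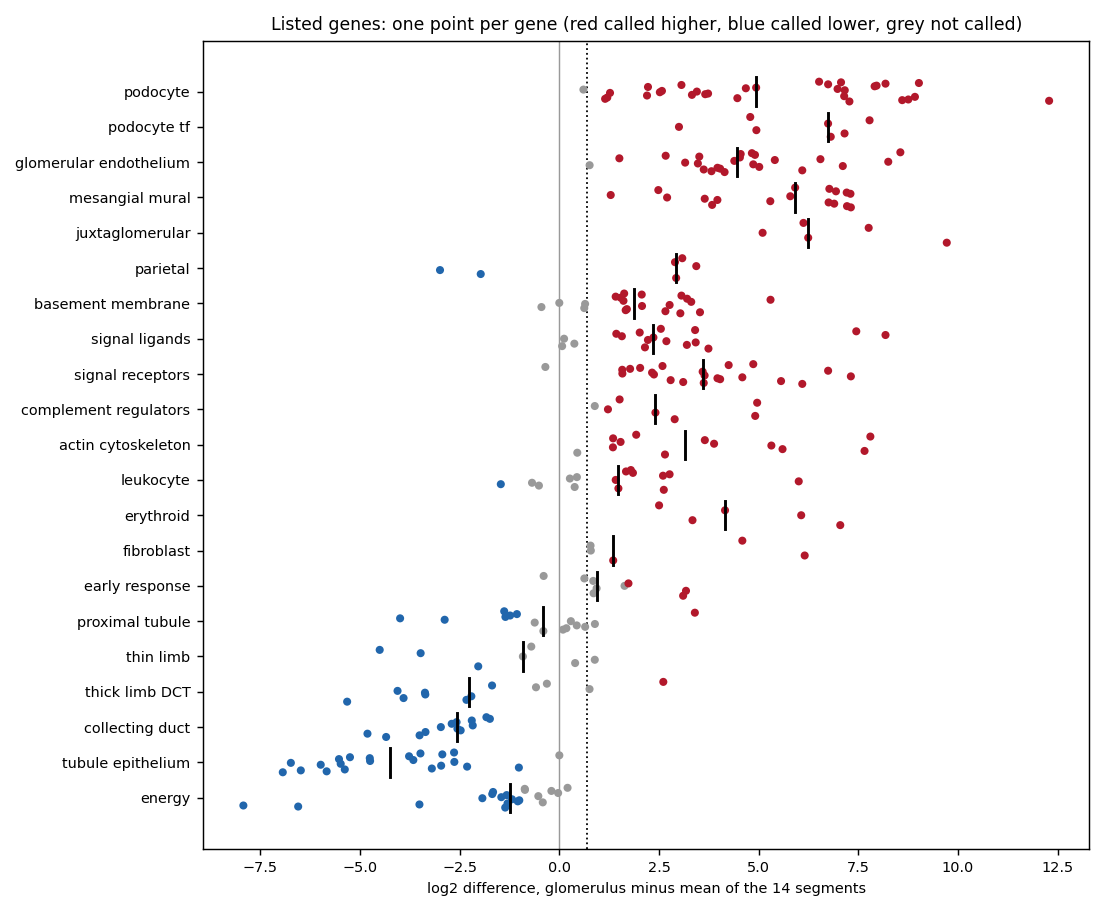
Log2 difference of glomerulus from the mean of the 14 segments for each gene of 21 lists. A point is a gene (red called higher, blue called lower, grey not called), a black bar the list median and the dotted line the median over all genes tested, 0.69. Most podocyte, mesangial, renin cell and endothelial genes lie to the right of it, and most genes of tubule epithelium to the left of 0.

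Endothelial genes were mostly higher, and DTL1 came closest for many of them. Of 24 genes, 23 were called higher than the mean of the segments (median 4.46) and 13 exceeded every segment, against 31.6% and 3.22% of all genes. Summed, they reached 13712 to 16786 TPM in glomerulus and 4301 to 7138 TPM in DTL1. Ehd3, an endocytic protein known from glomerular endothelium, was at 1592 to 1958 TPM (median 1742) against 70.1 ± 15.6 TPM in DTL1, 4.68 ± 0.35 above it (adjusted p = 4.3e-15). Gata5, a transcription factor of glomerular endothelium, was at 75.5 to 119.5 TPM (median 103) and no tubule sample exceeded 0.84 TPM. Cldn5, a tight junction protein, was at 575 ± 29.5 TPM against 6.63 ± 4.45 TPM in DTL1, and Sox17, an arterial transcription factor, at 142 ± 27 against 10.6 ± 1.36 TPM in DTL1. Kdr, the main VEGF receptor, was at 639 ± 105 against 39.2 ± 14.3 TPM in DTL2. Plat, the tissue plasminogen activator, was the most abundant endothelial gene at 4623 to 7123 TPM (median 4866); its highest segment was IMCD at 670.1 ± 526 TPM.

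Pecam1, an adhesion protein of endothelium, was at 282 ± 23.4 TPM in glomerulus and 131 ± 16.3 in DTL1, a margin of 1.11 ± 0.41 that missed the strict test (adjusted p = 0.1). Emcn, a sialomucin of capillary and venous endothelium, stood at 1796 ± 140.5 against 617 ± 48.7 TPM (adjusted p = 0.091), although all 3 glomerular mice lay above all tubule mice. The angiopoietin receptor Tek was at 268 ± 4.12 and 194 ± 36.1, its relative Tie1 at 140.0 ± 16.5 and 85 ± 14.5, and the VEGF receptor Flt1 at 103 ± 14.7 and 73.8 ± 24.1. Plvap, which forms the diaphragms of fenestrae that mature glomerular capillaries lack, went the other way. It was at 229.6 to 317 TPM (median 271) in the glomerular samples and at 2301 ± 493 TPM in DTL1, and it was the endothelial gene not called against the mean of the segments (0.76 ± 0.43, adjusted p = 0.11). The difference between the 2 groups in Plvap was -3.06 ± 0.59. Without DTL1, Plvap was called higher than the mean of the other segments, by 1.05 (adjusted p = 0.0286). Vwf was low, at 6.25 ± 3.55 TPM in glomerulus and 6.84 ± 6.91 TPM in ATL. Its call against the mean was lost with a pseudocount of 5 (0.67) and with the 14 segment means as units (adjusted p = 0.0511). It was also lost after quantile normalization (0.44, adjusted p = 0.26), where 22 of the 24 endothelial genes were called higher.

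**Figure D4:**
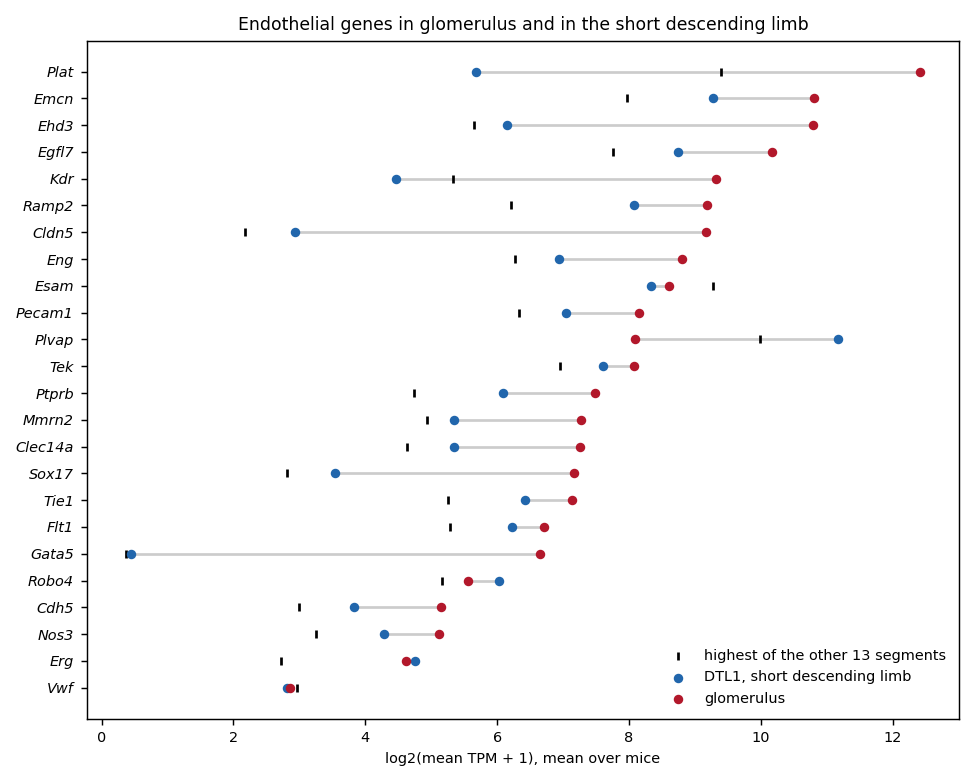
Mean over mice of 24 endothelial genes, as log2(mean TPM + 1), in glomerulus (red), in DTL1 (blue) and in the highest of the other 13 segments (black tick). Plat, Ehd3, Kdr, Cldn5, Sox17 and Gata5 lie far to the right of DTL1, and Plvap lies to its left.

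Mesangial and mural cell genes were higher throughout. All 17 were called higher and 15 exceeded every segment, with a median difference of 5.91, against 31.6%, 3.22% and 0.69 over all genes. Their sum was 3830.4 to 4490 TPM in glomerulus and 231 to 303 TPM in DTL1. Pdgfrb, the receptor through which mesangial cells are recruited, was at 228 to 335 TPM (median 277) against at most 8.36 in tubule. Its difference from the mean of the segments was 7.31 ± 0.37 (adjusted p = 2.2e-21). Itga8, a mesangial integrin, was at 374 ± 51.7 TPM against 18.3 ± 8.85 TPM in DTL1, Des (desmin) at 216 ± 19.7 against 8.37 ± 3.56 TPM in DTL1, and Ptn (pleiotrophin) at 423 ± 16.6 against 8.43 ± 4.41 TPM in DTL1. Serpine2, a protease inhibitor, and Art3, a surface protein, were at 1029.6 ± 174 and 350.2 ± 23.9 TPM. Agtr1a, the angiotensin II receptor, was steady over the glomerular samples at 372 to 429 TPM (median 394), and its highest segment was PTS1 at 51.5 ± 3.0 TPM. Smooth muscle genes were less abundant: Acta2 was at 181 ± 39.9 TPM, Tagln at 91.7 ± 8.59, Myh11 at 20.3 ± 6.78 and Cnn1 at 2.95 ± 2.55. Acta2 and Myh11 dipped in the first piece of mouse 2, to 72.9 and 7.1 TPM. Cnn1 missed the size threshold after quantile normalization (0.40, leaving 16 of the 17 called higher), with a pseudocount of 5 (0.49), with piece a alone (0.76) and without mouse 3 (0.89). The 2 members that did not exceed every segment were Cnn1 (1.53 ± 0.22 TPM in DTL3) and Gata3, which was at 106 ± 6.08 in glomerulus and 157 ± 12.1 TPM in OMCD, a segment whose principal cells are known to use it.

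Renin cell genes exceeded every segment, 5 of 5 (3.22% of all genes), with a median difference of 6.24. Ren1 was uneven between pieces, at 724, 1129, 1823, 555, 2054, 1369 TPM in pieces a and b of mice 1, 2 and 3, so the larger value was in piece b of mouse 1 and in piece a of mice 2 and 3. The connexins Gja5 and Gja4, which couple renin cells and endothelium, were at 266 to 318 TPM (median 278) and 73.9 to 127 TPM (median 98.2). Akr1b7, an aldo-keto reductase known from renin cells, was at 99.6 ± 33.1 TPM against 2.23 ± 0.172 TPM in IMCD, and Rgs5, a regulator of G protein signalling in pericytes, at 51.2 ± 8.63 against 2.15 ± 1.44 TPM in DTL1. Enpep, the aminopeptidase that degrades angiotensin II and one of the podocyte genes above every segment, was at 1226 to 1458 TPM (median 1345) against 138 ± 10.8 TPM in DTL2. The 250 bases before the start of Ren1 are shown because Ren1 was among the listed genes with the largest margin above every segment. They come from RefSeq on GRCm38.p6, chr1:133350424-133350673, forward strand, 5′ to 3′ toward the start, with the TATA box TATAAA in capitals, at positions -29 to -24 from the start.
Ren1: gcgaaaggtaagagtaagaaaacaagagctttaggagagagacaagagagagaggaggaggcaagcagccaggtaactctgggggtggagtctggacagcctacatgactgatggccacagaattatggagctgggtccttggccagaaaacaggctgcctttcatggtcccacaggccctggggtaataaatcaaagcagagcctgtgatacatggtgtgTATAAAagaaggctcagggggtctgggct
Searched on both strands of 32851 promoters of the same length, TATAAA occurred in 12.4%. A match describes these letters and shows no binding.

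Matrix genes of the glomerular basement membrane were higher, but less exclusively so. Of 20 basement membrane and matrix genes, 16 were called higher and 0 lower (median 1.88), and 4 exceeded every segment: Col4a1, Col4a2, Lamb2 and Nid1. Over all genes the shares were 31.6%, 3.94% and 3.22% and the median 0.69. After quantile normalization 14 were higher and 1 lower (median 1.27). The mature membrane is built of the collagen IV chains Col4a3, Col4a4 and Col4a5. Col4a3 was at 292 to 412 TPM (median 356) in glomerulus and 306 ± 62.9 TPM in ATL, Col4a4 at 187 ± 37.7 and 215 ± 101 TPM in ATL, and Col4a5 at 81.6 ± 28 and 169 ± 29.4 TPM in ATL, and none of the 3 exceeded ATL by the strict test. Col4a1 and Col4a2, the chains of mesangial matrix and of most basement membranes, were at 228 to 468 TPM (median 278) and 131 to 295 TPM (median 167). In both, the pieces of mouse 3 were the highest, at 468 and 459 TPM for Col4a1. Lamb2, the laminin beta chain of the mature membrane, was at 374 ± 86.6 TPM against 112 ± 7.87 TPM in CNT, while Lamb1, its embryonic counterpart, was at 48.9 ± 5.42 in glomerulus and 303 ± 54 TPM in DTL3 and was not called (difference -0.00 ± 0.17). Nid1 (nidogen) was at 225 ± 27.3 against 81 in DTL1, but Nid2 was at 66.3 ± 15.5 against 355 ± 71.3 TPM in DTL1. Lama5 and Agrn (agrin), major components of the mature membrane, were at 72.8 ± 36 and 144 ± 40.5 TPM, and ATL stood at 120.4 ± 23.8 and 199 ± 30.1. The members not called, beside Lamb1 and Lama5, were Col4a6 and Lama1.

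Secreted signals and their receptors were listed together because podocytes, endothelium and mesangium are known to maintain each other through them. Of 17 ligands, 14 were called higher (median 2.36) and 6 exceeded every segment. Of 22 receptors, 21 were called higher (median 3.61) and 8 exceeded every segment. Over all genes, 31.6% were called higher and 3.22% exceeded every segment. After quantile normalization 11 ligands were called higher and 4 exceeded every segment, and 19 receptors were called higher and 1 lower. Vegfa, the growth factor that podocytes supply to capillaries, was at 888 to 1135 TPM (median 977) against 156 ± 21.7 TPM in CNT, 2.67 ± 0.18 above it (adjusted p = 1.9e-16). Its receptor Kdr and coreceptor Nrp1 (1374 ± 136 TPM) also exceeded every segment, whereas Nrp2 (17.3 ± 3.01), Flt4 (19.9 ± 4.56) and Vegfc (8.82 ± 3.98) did not. Pdgfb, made by endothelium for mesangial cells, was at 70.3 ± 10.1 TPM against 32.1 ± 5.84 TPM in ATL, and its receptor Pdgfrb is described above. Pdgfa was not called, at 34.2 ± 7.04 TPM in glomerulus and 749.7 ± 347 TPM in ATL. Ctgf, a matricellular protein, was the most abundant ligand at 2763 to 3685 TPM (median 3265), against 125 ± 68.7 TPM in DTL1.

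Other ligands and receptors were matched or passed in tubule. Angpt2, the context-dependent ligand of Tek, was at 59.4 to 82.7 TPM (median 72.2) in glomerulus but at 2204 ± 592 TPM in DTL1, and Angpt1 was not called at 2.25 ± 0.361 TPM. Edn1 was at 13 ± 1.51 TPM, above every segment, as was its receptor Ednra at 19.9 ± 0.653. Ednrb was at 80.3 ± 6.17 in glomerulus and 221 ± 38.9 TPM in DTL1. Tgfb1 exceeded every segment (38.7 ± 5.04 TPM), Tgfb2 did not (9.5 ± 2.05), and of the receptors Tgfbr2 was called higher (2.59 ± 0.14) and Tgfbr1 was the one not called (-0.35 ± 0.16). After quantile normalization Tgfbr1 was called lower (-1.17, adjusted p = 3.9e-08). Eng was above every segment at 447 ± 67.8 TPM, and Acvrl1 was at 139 ± 6.94 against 131 ± 12.8 TPM in DTL2. Cxcl12, made by podocytes, was at 75.8 ± 15.5 TPM, and its receptors Cxcr4 and Ackr3 were at 4.45 ± 0.507 and 92.1 ± 24.4 TPM, against 3.94 ± 2.8 TPM in DTL3 and 494 ± 208 TPM in DTL2. Sema3g and Robo2, guidance molecules of podocytes, exceeded every segment at 398 ± 49.8 and 241 ± 24.4 TPM. The ligand Slit2 was not called, at 11.3 ± 5.58 against 80.1 ± 18.9 TPM in CTAL. Cxcr4 was not called after quantile normalization (0.44, adjusted p = 0.0661). With the 14 segment means as units, Angpt2 (adjusted p = 0.189), Cxcl12 (0.0801), Ackr3 (0.163) and Ednrb (0.0702) were not called.

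Complement regulators and contractile genes were mostly higher. Of 7 complement regulators, 6 were called higher (median 2.41), against 31.6% of all genes. Cd55, which breaks down convertases, was at 256 ± 32.4 TPM against 63.8 ± 21.2 TPM in IMCD and exceeded every segment, as did Serping1 (205 ± 25.9), the inhibitor of the first component. Cd59a, which blocks the membrane attack complex, was at 803 ± 67.7 against 669 ± 98.5 TPM in ATL. Clu was higher than the mean of the segments by 1.51 ± 0.29 but reached 6149 ± 1371 TPM in DCT against 140.1 ± 26.7 in glomerulus. Clu missed the size threshold without DTL1, DTL2, DTL3, ATL and OMCD (0.90) and was not called with segment means as units (adjusted p = 0.47). Of 12 actin and filament genes, 11 were called higher (median 3.15) and 5 exceeded every segment, against 31.6% and 3.22% of all genes. After median ratio rescaling 9 of the 12 were called higher, and after quantile normalization 9. Vim, the intermediate filament of podocytes and mesenchyme, was at 568 to 712 TPM (median 616) against 10.5 ± 7.14 TPM in DTL1. Myl9 was at 1086 ± 91.6 TPM against 57.6 ± 50.2 TPM in DTL1, and Mylk at 352 ± 51 against 40.2 ± 3.06 TPM in OMCD. Actb was abundant everywhere, at 8808 ± 562 TPM in glomerulus and 4637 ± 299 TPM in IMCD, and Actg1 was not called (0.45 ± 0.21).

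Genes of the parietal epithelium went both ways. Of 6, 4 were called higher and 2 lower, and none exceeded every segment (0 of 6), against 31.6%, 3.94% and 3.22% of all genes. Cldn1, a tight junction protein of Bowman's capsule, was at 15 to 33.3 TPM (median 27.8) against 14.8 ± 5.03 TPM in PTS1. Vcam1 was at 41.2 ± 15.5 TPM against 36.2 ± 5.23 TPM in DTL1, and Akap12 at 33.7 ± 7.8 against 153 ± 11.5 TPM in DTL3. Pax2 and Pax8, factors of the whole nephron epithelium that parietal cells retain, were called lower. Pax2 was at 0.533 ± 0.0289 TPM and Pax8 at 28.5 ± 6.18, and the segment means of Pax8 rose to 1054 ± 215 TPM in DTL3. Pax2 missed the size threshold without DTL1, DTL2, DTL3, ATL and OMCD (-0.98) and was not called with the 14 segment means as units (adjusted p = 0.114).

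The genes farthest below every segment included a sodium pump subunit, a keratin and a cadherin. Atp1b1, the beta subunit of the sodium pump, was at 4.8 to 18.2 TPM (median 11.9) in the glomerular samples. No tubule sample fell below 357 TPM, and the lowest segment mean was 385 ± 27.6 TPM in PTS1. Its difference from the mean of the segments was -6.55 ± 0.11, and from the closest, PTS1, -4.99 ± 0.16 (adjusted p = 5.7e-28). Spint1, an inhibitor of the epithelial serine protease matriptase, was at 0.40 to 1.8 TPM (median 1.15), below the lowest tubule sample at 45.7 TPM, and the lowest segment mean was 51.9 ± 2.47 TPM in PTS3. Rnf128, a ubiquitin ligase, was at 0.50 to 1.4 TPM (median 0.95) and differed from PTS3 by -5.42 ± 0.14, the largest margin in this direction. The list continued with Pdzk1ip1, a small membrane protein of tubule cells (21.5 ± 1.92 TPM in glomerulus, lowest segment 501 ± 101 TPM in MTAL), the keratin Krt8 (1.02 ± 0.275 and 46.6 ± 10.1 TPM in DTL2) and the polarity protein Crb3 (2.13 ± 1.33 and 42.8 ± 1.59 TPM in PTS2). Galm, Paqr5, Grb7, Kif12 and Cdh16, the kidney cadherin, were also among the 12 genes of largest margin, with glomerular means of 2.12, 1.87, 4.82, 3.38 and 27 TPM and margins of -3.85, -3.72, -3.57, -3.55 and -3.53. Pdzk1ip1 and Cdh16 were uneven between pieces, each highest in the first piece of mouse 1 (42.5 and 48.6 TPM) and lowest in the second (4.9 and 3.7).

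The promoters of Atp1b1 and Spint1 are shown as those of the listed genes with the largest margin below every segment. Both are the 250 bases before the RefSeq start on GRCm38.p6, 5′ to 3′ along the gene: Atp1b1 at chr1:164458356-164458605, reverse strand, and Spint1 at chr2:119237110-119237359, forward strand. Capitals mark the GC box GGGCGG and the CCAAT box CCAAT, each read on both strands.
Atp1b1: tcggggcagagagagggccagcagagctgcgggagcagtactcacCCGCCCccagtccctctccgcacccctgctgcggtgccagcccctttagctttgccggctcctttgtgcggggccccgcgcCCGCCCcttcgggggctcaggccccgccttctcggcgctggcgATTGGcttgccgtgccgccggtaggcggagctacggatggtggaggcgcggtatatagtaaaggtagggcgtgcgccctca
Spint1: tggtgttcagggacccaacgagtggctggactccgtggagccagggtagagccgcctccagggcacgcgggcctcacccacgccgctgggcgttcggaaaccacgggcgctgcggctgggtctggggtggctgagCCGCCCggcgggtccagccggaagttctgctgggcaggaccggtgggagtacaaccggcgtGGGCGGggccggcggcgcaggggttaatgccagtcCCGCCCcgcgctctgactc
Atp1b1 held 2 GC boxes and 1 CCAAT box, all on the opposite strand (CCGCCC and ATTGG as printed), and Spint1 held 3 GC boxes. Over the 32851 promoters, GGGCGG occurred in 32.7% and CCAAT in 33.8%. Neither window held TATAAA, which says only that these letters are absent from it.

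Beyond those genes, the epithelial programme was low as a whole. Of 22 genes of polarised tubule epithelium, 21 were called lower and 0 higher (median -4.26, against 3.94% of all genes called lower). Below every segment were 6 (0.29% of all genes), among them Spint1, Krt8, Cdh16, Emx2 and Marveld3. After median ratio rescaling 8 of the 22 were below every segment, and after quantile normalization 11. Epcam, a surface adhesion protein of epithelia, was at 0.30 to 3.2 TPM (median 1.3) in glomerulus and reached 1320.3 ± 38.4 TPM in DTL3, but PTS1 was lower than glomerulus, at 0.337 ± 0.0252. Its difference from the mean of the segments was -6.94 ± 0.13. Cdh1 (E-cadherin) was at 1.57 ± 0.425 TPM, but PTS1 was as low at 1.98 ± 0.43, so it was not below every segment. Cldn7 and Krt18 were likewise matched by proximal segments, at 1.35 ± 0.853 and 0.633 ± 0.501 TPM in glomerulus against 1.37 ± 0.584 in PTS1 and 0.637 ± 0.346 in PTS2. Spint2, by contrast, remained substantial at 145 to 168 TPM (median 165) in glomerulus, -0.60 ± 0.11 from PTS1. Marveld2, a tricellular junction protein, was the member not called (0.00 ± 0.12), at 25.3 ± 3.53 TPM. Wfdc2, a secreted protease inhibitor homolog, was listed at 0 in 3 of the 6 glomerular samples and at no more than 0.7 in the others, against 2022 ± 194 TPM in CTAL.

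Sodium pump, mitochondrial and fatty acid oxidation genes were lower, in part. Of 20, 13 were called lower and 0 higher (median -1.24), and Atp1b1 was below every segment, against 3.94% lower and 0.29% below every segment over all genes. Fxyd2, the regulatory gamma subunit of the pump, had the largest negative difference of all named genes, -7.93 ± 0.14, at 1.9 to 62 TPM (median 10.5) in glomerulus against 24305 ± 4385 TPM in MTAL. OMCD was as low, at 18 ± 4.93 TPM. Ppargc1a, a coactivator of mitochondrial genes, was at 3.7 ± 0.577 TPM against 266 ± 42.7 TPM in MTAL. The respiratory chain genes Cox5a (-1.93), Atp5b (-1.46), Uqcrc1 (-1.19) and Ndufs1 (-1.04) were called lower, as was Sdha only just past the size threshold, and none was lower than IMCD and ATL both. Atp5b (-0.92) and Uqcrc1 (-0.96) missed the size threshold after quantile normalization, and Ndufs1 missed it when MTAL, CTAL, DCT, CNT or CCD was left out (-0.94 to -0.99). Acadm, the medium-chain acyl-CoA dehydrogenase, was at 119 ± 5.11 TPM against 3569 ± 429.5 TPM in PTS3, while Cpt1a, the gate of mitochondrial fatty acid import, was not called (-0.03 ± 0.16) at 117 ± 3.1 TPM.

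Transporters of single segments were near 0 in glomerulus, with a few exceptions. Over all genes, 3.94% were called lower and 31.6% higher. All 13 collecting duct genes were called lower (median -2.58). Aqp2, the vasopressin-regulated water channel, was at 1.82 ± 0.425 TPM against 27393 ± 2114 TPM in IMCD. Avpr2 was at 0.40 ± 0.050 and Hsd11b2 at 0.50 ± 0.173 TPM. None of the 13 was below every segment, since proximal segments were as low. With the 14 segment means as units, Aqp2 (adjusted p = 0.23), Avpr2 (0.065) and Hsd11b2 (0.34) were not called, nor were Umod (0.10), Slc12a1 (0.38), Egf (0.35) and Gatm (0.095) below; in that test 19 of the listed epithelial and collecting duct genes were lower in place of 34. Of 12 thick limb and distal convoluted tubule genes, 8 were called lower and 1 higher (median -2.27). Umod was at 0 to 0.90 TPM in glomerulus against 36935 ± 1691 TPM in CTAL, and Slc12a1 at 0.10 to 0.80 TPM. The exception was Egf, at 142 to 193 TPM (median 160.1), which was higher than the mean of the segments by 2.61 ± 0.29 although CTAL reached 16508 ± 2260.3 TPM. Of 7 thin limb genes, 3 were called lower and 0 higher (median -0.91, and 0.43 when DTL1, DTL2, DTL3, ATL and OMCD were left out). After median ratio rescaling 5 were called lower (median -1.11), and after quantile normalization 5 (median -1.74). Of 15 proximal genes, 6 were called lower and 1, Gatm, higher (median -0.40, and 0.33 with a pseudocount of 0.1). The median of these proximal genes was -0.72 after median ratio rescaling and -1.15 without the same 5 segments. After quantile normalization it was -1.34, with 8 called lower. Gatm, which makes the creatine precursor, was at 41.2 to 60.6 TPM (median 45.4) against 4345 ± 515 TPM in PTS1. Lrp2 (megalin) and Cubn (cubilin) were at 1.87 ± 0.946 and 1.83 ± 0.257 TPM in glomerulus.

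Genes of blood cells were uneven over the pieces. All 5 red cell genes were called higher and exceeded every segment (median 4.16). Hbb-bs, a beta globin, was at 64.6, 173, 403, 29.5, 299, 300.2 TPM in pieces a and b of mice 1, 2 and 3, against 16.3 ± 17.8 TPM in CTAL. Hba-a1 and Hba-a2 share nearly all their sequence, so their separate levels are uncertain. Of 15 leukocyte genes, 9 were called higher and 1 lower (median 1.48), and 4 exceeded every segment, among them Lyz2, Cd79a and Itgam. Over all genes, 31.6% were called higher and 3.22% exceeded every segment. After quantile normalization 5 leukocyte genes were higher and 3 lower (median 0.54). Lyz2, the lysozyme of myeloid cells, was at 532, 104, 517, 134, 476, 367 TPM in the same order, higher in piece a of every mouse, a pattern found in 1 of the 15 leukocyte genes (6.67%, against 10.3% of all genes). C1qb, made by resident macrophages, was the leukocyte gene called lower (-1.47 ± 0.63), at 3.85 ± 4.17 TPM against 68.4 in CTAL. It was not called without mouse 1 (-1.23, adjusted p = 0.166) or without mouse 3 (-1.33, adjusted p = 0.124). Its call was also lost with a pseudocount of 0.1 (adjusted p = 0.152) or 5 (-0.98) and with pieces averaged as TPM (adjusted p = 0.115). The same held with the 14 segment means as units (adjusted p = 0.218), with piece a alone (0.167) and without MTAL, CTAL, DCT, CNT, CCD or OMCD. Cd8a and Trac, genes of T cells, were at 1.03 ± 0.454 and 2.98 ± 0.751 TPM. Of the fibroblast genes, Lum was not tested, Col1a2 (186 ± 54.7 TPM against 16.2 ± 6.59 TPM in DTL1) and Pdgfra (51.2 ± 3.42 against 8.98 ± 3.95 TPM in DTL1) exceeded every segment, Col1a1 was called higher at 3.48 ± 1.96 TPM but not after quantile normalization (0.23, adjusted p = 0.39), and Dcn and Col3a1 were not called. Without mouse 3, Dcn was called higher, at 1.11 (adjusted p = 0.0483). The summed leukocyte level was 288 to 1104 TPM in the glomerular samples and 561 to 1688 TPM in CTAL, the highest segment. The summed red cell level was 52.0 to 741 TPM against 0.12 to 156 TPM in CTAL. The part of these cells in the other results was not tested.

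The 2 pieces of a mouse differed widely in early response and proximal genes and little in podocyte genes. Over all genes tested, Pearson's r of log2(TPM + 1) across genes, which are not independent replicates, was 0.905 to 0.952 for the 3 pairs of pieces from the same mouse and 0.902 to 0.948 for the 12 pairs from different mice. Podocyte genes were nearly the same in both pieces: the median absolute difference between pieces was 0.0855 log2 units, against 0.189 for the genes above every segment and 0.395 for all genes tested. This was not particular to podocyte genes. The difference was 0.116 for endothelial genes, 0.1205 for basement membrane genes and 0.1204 for sodium pump, mitochondrial and fatty acid oxidation genes. Early response genes differed by 1.72 and red cell genes by 1.71. Piece b exceeded piece a in all 3 mice for 8 of 9 early response genes (88.9%), against 6.74% of all genes. Of these 9 genes, Fos, Jun and Atf3 were called higher than the mean of the segments (median of the list 0.93, against 0.69 and 31.6% called over all genes), which is near the background. Summed, the early response genes were at 299.8 to 2171 TPM in the glomerular samples and 1115.8 to 6917.1 TPM in CCD, the highest segment. Without mouse 1 neither Fos (2.61, adjusted p = 0.0843) nor Atf3 (1.23, adjusted p = 0.142) was called. The same held with the 14 segment means as units (adjusted p = 0.111 and 0.121). Atf3 was also not called with a pseudocount of 5 (0.93) or after quantile normalization (1.04, adjusted p = 0.232). With piece a alone Fos was not called (1.53, adjusted p = 0.209), and with piece b alone Junb was called higher (1.97, adjusted p = 0.00249), though not over both pieces. Fos, a transcription factor induced within minutes of many stimuli, was at 151, 416, 9.2, 889.8, 49.7, 144 TPM in pieces a and b of mice 1, 2 and 3, and Junb at 57.3, 185, 46.5, 399, 49.9, 139. Piece a exceeded piece b in all 3 mice for 8 of 15 proximal tubule genes (53.3%), against 10.3% of all genes. Slc34a1, the phosphate transporter of the early proximal tubule, was at 41.2, 7.7, 63.3, 2.0, 26.9, 4.3 TPM in that order and Slc5a2, the glucose transporter beside it, at 15.3, 0.30, 23.7, 0, 11.8, 1.4, with the value of 0 being a gene listed at 0. These levels compare with 9502 ± 307 and 2792 ± 335 TPM in PTS1. Neither was called against the mean of the segments over both pieces. With piece a alone both were called higher, by 1.69 and 2.43 (adjusted p = 0.00746 and 1.11e-06), and with piece b alone both were called lower, at -1.34 and -1.14 (adjusted p = 0.0343 and 0.012). The part of attached proximal tubule in other differences between pieces was not tested. What the piece letters mean is not given in the labels.

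Mouse 3 was highest for many genes of some lists and for few of others. Both of its pieces exceeded the 4 others for 21 of 31 podocyte genes (67.7%), 13 of 20 basement membrane genes (65.0%), 9 of 17 ligands (52.9%) and 6 of 12 actin and filament genes. Both pieces of mouse 1 were lowest for 15 of those podocyte genes (48.4%) and 9 of those basement membrane genes. The share lowest in mouse 1 was 20.7% of the genes above every segment and 5.71% of all genes. Protein-coding genes took 92.3% and 93.3% of TPM in mouse 3 and 87.7% to 91.5% in the 4 other pieces; the part of this in the pattern was not tested. The share highest in mouse 3 was 27.9% of the genes above every segment and 7.27% of all genes tested (2458). It was 0 of 7 for complement regulators, of which 4 were lowest in both pieces of mouse 3 (57.1%, against 13.5% of all genes), and 0 of 5 for red cell genes. Podxl was at 3070.2 and 2826 TPM in mouse 3 and between 2002 and 2252 in mice 1 and 2, and Col4a2 at 295 and 293 against 131 to 169. With 3 mice this is a description of these animals. Without mouse 3, 1104 genes exceeded every segment and 89 were below every segment.

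**Figure D5:**
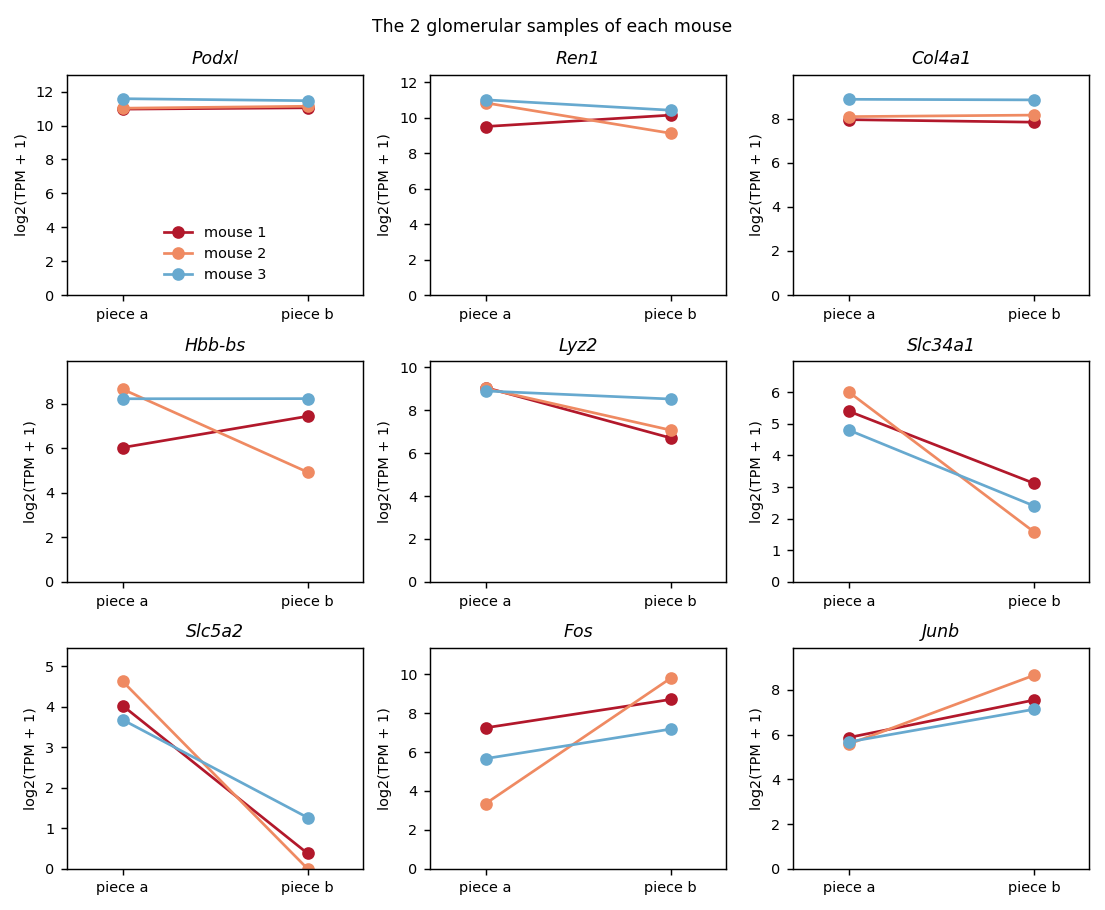
Level of 9 genes in piece a and piece b of each glomerular mouse, as log2(TPM + 1), with a line joining the pieces of a mouse. Podxl and Col4a1 are nearly level between pieces, Slc34a1, Slc5a2 and Lyz2 are higher in piece a of every mouse, and Fos and Junb in piece b of every mouse.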

How the data were processed

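RNA was sequenced from dissected pieces of 93 samples, 6 glomerular and 87 tubular, and 3 single-cell samples of the series were not analysed here. Per the labels' protocols, poly(A) RNA was extracted with a Direct-zol kit, amplified with SMARTer V4 and made into libraries with Nextera XT. STAR 2.5.4a and RSEM 1.3.0 are named in the submitters' processing notes; the build and annotation are not given in the sources used here. The authors deposited TPM per gene and sample (54532 genes, columns summing to 999998.6 to 1000190.3), with 1 decimal in glomerular and 2 in tubular columns. Whether the glomerular columns were made in a separate run is not given, so a difference in processing cannot be told apart from the structure dissected. The columns of the authors' own means were not used. Because TPM hold no counts, no count model was run. One PTS2 column, whose name matches no title, entered as another PTS2 animal.

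Pieces of a mouse and segment were averaged as log2(TPM + 1) (pseudocount 1), and genes with at least 1 TPM in at least 3 mice were kept (33793). limma 3.58.1 (R 4.3.3, trended empirical Bayes) was fitted to 15 groups over 53 mice. The first contrast set the glomerulus against the mean of 14 segment means, each weighing the same. The strict test took the largest one-sided p of the 14 single contrasts, so that a gene had to pass against every segment. Benjamini-Hochberg adjusted p under 0.05 and a log2 difference of at least 1 were required; for the strict test the smallest of the 14 differences had to reach 1. On simulated data for these 33793 genes, 200 were changed by 2 log2 units. The first contrast recovered 100% of them with 1 false call. The strict test recovered 94.5% upward and 94% downward with 0 false calls. In the simulation every segment had the same level of a gene, with normal noise, and low genes were not among those changed. These shares therefore do not carry over to low genes or to segments that differ.

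Named genes were all listed genes, the 12 with the largest margin above and the 12 below every segment (at least 10 TPM on the higher side, no overlap of mice), and the 8 with the largest difference either way from the mean, passing over predicted, mitochondrial, ribosomal protein and pseudogene names. The text describes 182 of these genes; most others enter only the counts of their lists, and some are not reported here. Members and lists were chosen with earlier results of these data known. Biotypes came from GENCODE M21 for 99.77% of identifiers, and promoters from RefSeq. Of 4 promoters asked for, 3 are printed. Alternatives were another pseudocount, filter, scaling, averaging, weighting or block, and leaving out each segment or mouse; using 1 piece per glomerular mouse was added after seeing the data.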

Additional observations from a re-analysis of the deposited data

Results flagged for a closer look

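Of 182 genes named, 10 (5.49%) had 1 glomerular sample set apart from the other 5 by a gap past Dixon's critical share of the whole range for 6 samples; chance gives about 1 in 20. Among genes of the glomerular cells, Myl7 was at 340.1 TPM in piece a of mouse 1 and at 118.8 to 187.8 in the others, and the arterial factor Sox17 at 199.8 TPM in piece b of mouse 2 against 114.7 to 145.0. Vwf was at 15.2 TPM in piece b of mouse 1 against 1.8 to 6.5, and the endothelin receptor Ednra at 22.2 TPM in the same piece, where all 6 samples spanned 19.0 to 22.2. The smooth muscle gene Cnn1 was at 9.9 TPM in piece b of mouse 3 against 0.7 to 3.5. The macrophage gene C1qb was at 17.0 TPM in piece a of mouse 2 against 0.3 to 3.3. Among genes of the tubule, Hsd11b2 was at 1.0 TPM in piece a of mouse 1 against 0.3 to 0.5, Krt8 at 0.4 TPM in piece b of mouse 2 against 1.0 to 1.3, and piece b of mouse 1 was lowest for Spint2, at 144.8 TPM against 162.3 to 167.9, and for Sdha, at 315.4 TPM against 333.3 to 338.9.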

How the results depend on the processing

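The count of genes called against the mean of the segments, 12014, depended on the scale. It was 21193 with a pseudocount of 0.1 (19770 higher), 4215 with a pseudocount of 5 (3166 higher), 5929 after quantile normalization (2868 higher, 3061 lower) and 6773 over protein-coding genes alone (5554 higher). Genes called higher came to 6985 with a filter of 5 TPM and 7022 after median ratio rescaling. With the 14 segment means as units, 602 genes were lower, and 19 of the listed epithelial and collecting duct genes in place of 34. Above every segment were 1731 genes without DTL1 and 8733 without DTL1, DTL2, DTL3, ATL and OMCD. Below every segment were 59 genes with a pseudocount of 5, 153 after median ratio rescaling, 240 after quantile normalization and 161 without those 5 segments. The cause was not tested. With piece b alone, Slc34a1 and Slc5a2 turned from positive to -1.34 and -1.135.

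Leaving out 1 mouse at a time gave 10169 to 13892 genes called against the mean, 8773 to 12591 higher, 1301 to 1396 lower, 1061 to 1123 above every segment and 89 to 102 below every segment, the lowest count of higher genes without glomerular mouse 1 and the highest without mouse 3. It gave 81 to 82 of the listed podocyte, endothelial, mesangial and renin cell genes called higher and 33 to 34 of the listed epithelial and collecting duct genes lower. Of 181 genes tested among the 182 described, 174 kept their side of the threshold, and their direction where called, in each of these 53 fits. The same held for 130 in each of the 31 other alternatives. Changes of direction in genes that stayed uncalled were not counted. With the 14 segment means as units, 30 lost their call.

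Mouse numbers do not pair samples here, since each number and segment is another animal. Mice of the same number in different groups did not deviate together (median r 0.000185 over 290 pairs, against 0.000366 over 1016 pairs of different numbers). With the mouse number as a replicate block, 11150 genes were higher, 1343 lower, 1115 above every segment and 96 below every segment. Depth is unknown in TPM, glomerular values resolve no less than 0.1 TPM, and 3 glomerular mice limit the precision of every value.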
